A study of Rattus norvegicus with 6 samples.

Results

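The 10 genes described here are the core circadian clock genes Clock, Per1, Per2, Per3, Cry1, Cry2, Nr1d1 and Nr1d2 and the clock output genes Dbp and Tef. They were picked by name from a table of 32930 genes, with earlier results of these data known. All 10 were listed on 1 row each, and all 10 passed the filter on low counts, as did 18455 genes in all. The CLOCK protein pairs with BMAL1 (listed under its older symbol Arntl) and binds E-box sequences to switch on the Per, Cry and Nr1d genes, and PER and CRY proteins then block that pair. The REV-ERB proteins, made from Nr1d1 and Nr1d2, hold down Arntl, Clock, Npas2, Nfil3 and Cry1, so that these genes peak at about the opposite time of day to Dbp and Nr1d1 in liver. DBP, TEF and HLF are PAR-bZIP transcription factors, which carry the rhythm to D-box genes of drug, heme and bile acid metabolism.

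Liver RNA was sequenced from 3 animals fed a high-fat diet and given the vehicle 0.5% CMC-Na (HFD) and from 3 on that diet that received HTG, the herbal Huazhuo Tiaozhi granule (HTG), and the animals are separate. The labels name no vehicle for the HTG group, but in the rat methods of the study every drug was given in 0.5% CMC-Na. The labels give 12 weeks of intervention, whereas the methods of the study start HTG in its rats only after the first weeks of that diet. The samples are labelled as rats with fatty liver, the RNA sequencing methods of the study name C57BL/6 J mice, and the deposited rows carry mouse Ensembl identifiers, so the species is uncertain. The rows are taken here as the mouse genes they name. The treatment label of the HTG samples reads HCG, while their titles read HTG. No age and no hour of sampling were given in the sources used here, and the study's rats were fasted before sampling.

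The deposited table holds an estimated count and an FPKM value (fragments scaled by transcript length and library size) for each gene and library. The total was 65353298 counts for HFD 1, 70910444 for HFD 2 and 69907057 for HFD 3, against 78549295 for HTG 1, 90563477 for HTG 2 and 50648778 for HTG 3. Each set of 3 values below is in the order of libraries 1, 2 and 3. Counts of 4, 8 and 12 were more frequent than their neighbours (6450 values of 4, beside 2549 of 3 and 1757 of 5), but counts of 1, 2 and 3 occur as well, and what a count stands for was not stated. Taking 4 counts as 1 fragment, a low estimate, depth ran from 12662194 fragments in HTG 3 to 22640869 in HTG 2. On that estimate a gene with no reads could have held up to 3 fragments, or 12 counts, which is 0.123 CPM in HTG 2 and 0.256 CPM in HTG 3 (CPM, counts scaled to library size with TMM, a factor for composition), and such floors cover counting error only. Albumin (Alb), made by hepatocytes, was at 57854, 66091 and 74503 CPM in HFD against 53506, 54429 and 55201 CPM in HTG, so the defining transcript of the labelled tissue was present at a high level.

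The comparison asks whether HTG altered the clock genes of high-fat-fed liver. None of the 10 members differed between HTG and HFD at an adjusted p under 0.05 (0 of 10 by the edgeR quasi-likelihood test, Benjamini-Hochberg adjusted, 0 by DESeq2 and 0 by limma on log2(FPKM + 0.1)), beside 0.0108% of all genes tested in edgeR, 13% in DESeq2 and 8.03% in limma. Per1 was the 1 member with an unadjusted p under 0.05, by edgeR and also by DESeq2 and limma, where 24.7% of all genes in edgeR had one. Per1 was also the 1 member whose HFD and HTG libraries did not overlap in CPM, and it was lower in HTG, as were 15.5% of all genes in that way (32.1% in either direction). Both shares of the members lay below those of all genes. The member count at an unadjusted p under 0.05 was 4 without HTG 1 (Per1, Per3, Cry1 and Nr1d1, beside 25.7% of all genes in that fit), 2 without HFD 3 (Per1 and Per2, beside 20.5%), 1 without HTG 2 (Per1, beside 16.2%), and 0 without HFD 1, HFD 2 or HTG 3 (beside 22.3%, 20.3% and 17.9%). The volcano thresholds used here (unadjusted p under 0.05 and absolute log2 fold change over 1) were read from the lines drawn in the study's volcano plot. Its text states none for RNA sequencing. No member passed these thresholds, which 8.85% of all genes passed, but 3 did without HTG 1 (Per3, Cry1 and Nr1d1, beside 12.1% of all genes in that fit) and 1 without HFD 3 (Per2, beside 8.4%). Over all genes tested, 2 had an adjusted p under 0.05, Gemin4 (log2 fold change −7.31, adjusted p = 0.04) and ENSMUSG00000121092 (2.34, adjusted p = 0.04), named after their values were seen. That count was 653 without HTG 1, 7 without HFD 2 and 0 without HFD 3, HTG 2 or HTG 3.

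The members were spread widely within each group. Dbp, Nr1d1, Cry1 and Per3 differed several-fold between animals given the same treatment, and the libraries that were high in Dbp were low in Cry1 and Arntl. The widest range was that of Dbp within HTG, 47.1-fold from HTG 1 to HTG 2. In 8 of 10 members the fitted log2 difference between the groups was smaller than the SD within groups.

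Clock, the DNA-binding partner of BMAL1 (ENSMUSG00000029238, chr5:76357715-76452639, minus strand; coordinates as the table lists them, with no build named), had deposited counts of 968, 1875 and 1483 in HFD against 2100, 1331 and 912 in HTG. Scaled for depth, these were 14.2 CPM in HFD 1, 28.1 in HFD 2 and 20.6 in HFD 3, against 27 CPM in HTG 1, 13.6 in HTG 2 and 19.5 in HTG 3. HFD 2 and HTG 1 were the high libraries, HFD 1 and HTG 2 the low ones, and the groups overlapped throughout. The means were 21 ± 6.96 CPM in HFD and 20 ± 6.69 CPM in HTG (SD, n = 3 each). The log2 fold change of Clock was −0.069 ± 0.31 (SE; edgeR quasi-likelihood, Benjamini-Hochberg adjusted p = 0.916), and it was 0.20 without HFD 2 and −0.39 without HTG 1.

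Arntl, which encodes BMAL1, is the partner of Clock in the activator and lies outside the 10 members. It was at 0.969 CPM in HFD 1, 7.54 in HFD 2 and 4.94 in HFD 3, against 12.5 CPM in HTG 1, 0.89 in HTG 2 and 1.3 in HTG 3. HTG 1 was highest and HTG 2 lowest, 14.0-fold apart, and HFD 1 and HTG 3 were close to HTG 2. Its log2 fold change was 0.13 ± 1.01 (SE; edgeR quasi-likelihood, Benjamini-Hochberg adjusted p = 0.954) and it was −2.07 without HTG 1 and −0.35 without HFD 1, so that its direction rested on single libraries. Npas2, a relative of Clock that can take its place, had 56 counts in HTG 1 and between 4 and 14 in the other 5 libraries, which is at or near the floor of 12 counts.

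Per1, a repressor of the activator pair (ENSMUSG00000020893, chr11:68986043-69000786, plus strand), had counts of 3579, 4830 and 3527 in HFD against 3313, 4428 and 1367 in HTG, or 52.5, 72.4 and 49.1 CPM in HFD against 42.5, 45.3 and 29.2 CPM in HTG. Every HTG library was below every HFD library, and HTG 3 was the lowest. The means were 58 ± 12.6 CPM in HFD and 39 ± 8.62 CPM in HTG (SD, n = 3 each). The log2 fold change of Per1 was −0.57 ± 0.23 (SE), with an unadjusted p of 0.0376 and an adjusted p of 0.174 (edgeR quasi-likelihood, Benjamini-Hochberg). It stayed between −0.69 and −0.38 when each library was left out in turn. The spread of Per1 within groups was small beside that of most members, 1.48-fold in HFD and 1.55-fold in HTG.

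Per2, its paralogue and fellow repressor (ENSMUSG00000055866, chr1:91343704-91387046, minus strand), had counts of 2895, 2340 and 6378 in HFD against 5223, 8432 and 4940 in HTG, or 42.5, 35.1 and 88.8 CPM in HFD against 67, 86.3 and 105 CPM in HTG. HFD 1 and HFD 2 were the low libraries, while HFD 3 lay among the HTG libraries. The means were 55.5 ± 29.1 CPM in HFD and 86.3 ± 19.2 CPM in HTG (SD, n = 3 each), and the log2 fold change was 0.64 ± 0.35 (SE; edgeR quasi-likelihood, Benjamini-Hochberg adjusted p = 0.304). Without HFD 3 it was 1.15. Per2 was thus highest in HTG 3, the library where Per1 was lowest.

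Per3, the third Period gene (ENSMUSG00000028957, chr4:151088109-151129122, minus strand), had counts of 2987, 1665 and 3792 in HFD against 1732, 9877 and 3455 in HTG, or 43.9, 25 and 52.8 CPM in HFD against 22.2, 101 and 73.8 CPM in HTG. HTG 2 and HTG 3 were the high libraries, HTG 1 and HFD 2 the low ones, and all HFD values fell inside the HTG range. The means were 40.5 ± 14.2 CPM in HFD and 65.7 ± 40 CPM in HTG (SD, n = 3 each), and the log2 fold change was 0.70 ± 0.50 (SE; edgeR quasi-likelihood, Benjamini-Hochberg adjusted p = 0.424). It was 0.24 without HTG 2 and 1.07 without HTG 1. Camta1, a gene on the same strand that spans Per3, had 271, 254 and 252 counts in HFD against 554, 805 and 304 in HTG, well below the counts of Per3, and reads that both genes could claim leave the Per3 counts uncertain to that extent.

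Cry1, the main cryptochrome repressor (ENSMUSG00000020038, chr10:84967564-85020928, minus strand), had counts of 373, 1319 and 1231 in HFD against 2176, 418 and 253 in HTG, or 5.48, 19.8 and 17.1 CPM in HFD against 27.9, 4.28 and 5.4 CPM in HTG. HTG 1, HFD 2 and HFD 3 were high and the other 3 libraries were low, with a gap between them that cut across both groups. The range was 3.61-fold within HFD and 6.53-fold within HTG. The means were 14.1 ± 7.61 CPM in HFD and 12.5 ± 13.3 CPM in HTG (SD, n = 3 each), and the log2 fold change was −0.17 ± 0.73 (SE; edgeR quasi-likelihood, Benjamini-Hochberg adjusted p = 0.911). It was −1.58 without HTG 1 and 0.24 without HTG 2, so its direction rested on single libraries.

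Cry2, the second cryptochrome (ENSMUSG00000068742, chr2:92233991-92264388, minus strand), had counts of 2342, 2780 and 2737 in HFD against 2324, 3901 and 1595 in HTG, or 34.4, 41.7 and 38.1 CPM in HFD against 29.8, 39.9 and 34 CPM in HTG. It was the evenest member, with ranges of 1.21-fold in HFD and 1.34-fold in HTG, and the groups overlapped. The means were 38.1 ± 3.65 CPM in HFD and 34.6 ± 5.06 CPM in HTG (SD, n = 3 each), and the log2 fold change was −0.14 ± 0.17 (SE; edgeR quasi-likelihood, Benjamini-Hochberg adjusted p = 0.659). An antisense transcript at Cry2, D930015M05Rik, had 33, 38 and 80 counts in HFD against 11, 59 and 24 in HTG. The methods of the study describe a dUTP protocol, which marks the strand, and the labels name the NEBNext Ultra kit. Whether the counting used the strand was not stated, so reads of a gene and of its antisense partner could not be separated.

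Nr1d1, which encodes REV-ERBα, a heme-binding repressor (ENSMUSG00000020889, chr11:98658758-98666159, minus strand), had counts of 4171, 1807 and 982 in HFD against 622, 15178 and 3244 in HTG, or 61.2, 27.1 and 13.7 CPM in HFD against 7.98, 155 and 69.3 CPM in HTG. HTG 2 was the highest library and HTG 1 the lowest, 19.4-fold apart, and all 3 HFD values lay between them. Within HFD the range was 4.48-fold, with HFD 1 on top. The means were 34 ± 24.5 CPM in HFD and 77.5 ± 74 CPM in HTG (SD, n = 3 each), and the log2 fold change was 1.19 ± 0.89 (SE; edgeR quasi-likelihood, Benjamini-Hochberg adjusted p = 0.441). It was 0.18 without HTG 2, 1.92 without HFD 1, and 0.60 by limma on log2(FPKM + 0.1).

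Nr1d2, which encodes REV-ERBβ (ENSMUSG00000021775, chr14:4230569-4265642, plus strand), had counts of 5270, 5720 and 2681 in HFD against 2264, 9325 and 3266 in HTG, or 77.4, 85.8 and 37.3 CPM in HFD against 29.1, 95.4 and 69.7 CPM in HTG. HTG 1 and HFD 3 were the low libraries, and the other 4 lay between 69.7 and 95.4 CPM. The means were 66.8 ± 25.9 CPM in HFD and 64.7 ± 33.4 CPM in HTG (SD, n = 3 each), with a log2 fold change of −0.046 ± 0.44 (SE; edgeR quasi-likelihood, Benjamini-Hochberg adjusted p = 0.964). That value was 0.26 without HTG 1 and −0.44 without HTG 2. Nr1d2 followed Nr1d1 in its lowest and highest library, with a smaller range of 3.28-fold in HTG.

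Dbp, the PAR-bZIP factor whose transcript swings widely over the day in liver (ENSMUSG00000059824, chr7:45354512-45359627, plus strand), had counts of 9785, 1963 and 2032 in HFD against 454, 26832 and 5445 in HTG, or 144, 29.4 and 28.3 CPM in HFD against 5.83, 274 and 116 CPM in HTG. HTG 1 was far below and HTG 2 far above all other libraries, HFD 1 and HTG 3 were near each other, and HFD 2 and HFD 3 were nearly equal. The HFD values thus fell inside the HTG range, and Dbp spanned 5.08-fold within HFD. The means were 67.1 ± 66.3 CPM in HFD and 132 ± 135 CPM in HTG (SD, n = 3 each), so that the HTG mean was no larger than its own SD. The log2 fold change of Dbp was 0.98 ± 1.09 (SE; edgeR quasi-likelihood, Benjamini-Hochberg adjusted p = 0.615). It was −0.14 without HTG 2, 2.19 without HFD 1, and 0.18 by limma on log2(FPKM + 0.1). Sphk2, whose end overlaps Dbp on the other strand, had 2751, 3804 and 2840 counts in HFD against 3830, 4209 and 1834 in HTG, a range far narrower than that of Dbp.

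Tef, the second PAR-bZIP member (ENSMUSG00000022389, chr15:81686622-81711064, plus strand), had counts of 15237, 12088 and 10350 in HFD against 10801, 34267 and 10486 in HTG, or 224, 181 and 144 CPM in HFD against 139, 351 and 224 CPM in HTG. HTG 2 was the high library and HTG 1 and HFD 3 were the low ones, as for Nr1d1 and Nr1d2. The means were 183 ± 39.8 CPM in HFD and 238 ± 107 CPM in HTG (SD, n = 3 each), and the log2 fold change was 0.38 ± 0.34 (SE; edgeR quasi-likelihood, Benjamini-Hochberg adjusted p = 0.522), which was −0.015 without HTG 2. The antisense transcript Gm17597 at the start of Tef had 30, 16 and 12 counts in HFD against 30, 215 and 28 in HTG, and was likewise highest in HTG 2.

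**Figure D1:**
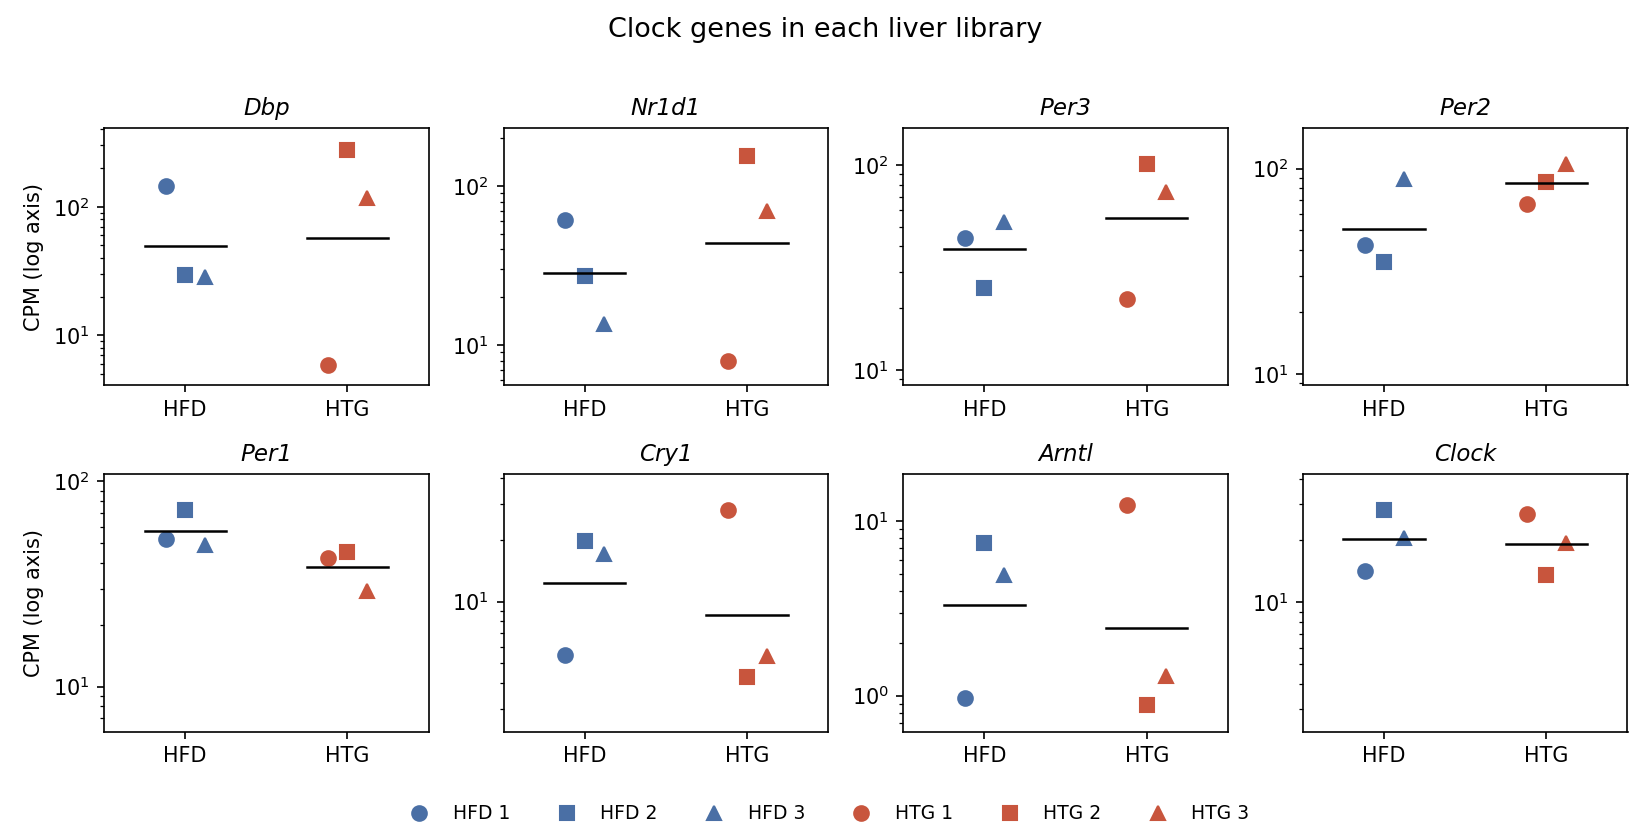
Level of 7 members and of Arntl in each library, as TMM-scaled CPM on a log axis, with HFD in blue, HTG in red and a bar at the geometric mean of the 3 libraries of each group. In HTG the points of Dbp are 47.1-fold apart and those of Nr1d1 19.4-fold, Cry1 and Arntl are highest in the HTG library where Dbp is lowest and lowest in the one where it is highest, and in Per1 alone of these 8 genes the groups do not overlap.

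By mean FPKM over the 6 libraries, a level per unit of transcript length, Dbp and Tef were the most abundant members and Clock the least, but the order differed between libraries, and in HTG 1 Dbp was the lowest of the 10. Dbp was at FPKM 48.1, 8.88 and 9.38 in HFD against 1.81, 92.7 and 33.8 in HTG, and Tef at FPKM 28.5, 20.8 and 18.2 in HFD against 16.4, 45 and 24.8 in HTG. Thus Tef exceeded Dbp in HFD 2, HFD 3 and HTG 1, and Dbp exceeded Tef in HFD 1, HTG 2 and HTG 3. Nr1d1 was at FPKM 20, 7.95 and 4.41 in HFD against 2.42, 51 and 19.6 in HTG, and Nr1d2 at FPKM 14.3, 14.3 and 6.85 in HFD against 5.01, 17.8 and 11.2 in HTG. Of these 2 receptors Nr1d1 was the more abundant in HFD 1, HTG 2 and HTG 3, the same libraries in which Dbp exceeded Tef. Per1 was at FPKM 9.36, 11.6 and 8.66 in HFD against 7.04, 8.13 and 4.51 in HTG. Per2 was at FPKM 7.28, 5.41 and 15.1 in HFD against 10.7, 14.9 and 15.7 in HTG, and Per3 at FPKM 4.58, 2.35 and 5.46 in HFD against 2.16, 10.6 and 6.68 in HTG. Per3 had the lowest FPKM of the Period genes in the HFD libraries and HTG 1, and Per1 had it in HTG 2 and HTG 3. Cry1 was at FPKM 1.64, 5.35 and 5.09 in HFD against 7.79, 1.29 and 1.4 in HTG, and Cry2 at FPKM 5.45, 5.96 and 5.98 in HFD against 4.4, 6.38 and 4.68 in HTG. Cry1 exceeded Cry2 in HTG 1 and lay below it in the other 5 libraries. Clock was at FPKM 1.04, 1.85 and 1.49 in HFD against 1.83, 1.0 and 1.23 in HTG, and its partner Arntl at FPKM 0.13, 0.90 and 0.65 in HFD against 1.54, 0.12 and 0.15 in HTG. Clock thus exceeded Arntl in every library, most narrowly in HTG 1. Over the 6 libraries the mean FPKM ran from 32.4 ± 34.4 for Dbp, 25.6 ± 10.5 for Tef, 17.6 ± 18.0 for Nr1d1, 11.6 ± 4.89 for Nr1d2 and 11.5 ± 4.41 for Per2 down to 8.22 ± 2.38 for Per1, 5.47 ± 0.787 for Cry2, 5.31 ± 3.14 for Per3, 3.76 ± 2.71 for Cry1 and 1.41 ± 0.378 for Clock (SD, 6 libraries). In that order only Per1 and Cry2 were neighbours whose means differed by more than the SD of either gene.

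The spread within groups was set beside that of the 10017 tested genes with a mean of at least 5 CPM, whose median SD within groups was 0.26 on the log2 scale. Dbp had an SD of 2.27, at percentile 99.8 of those genes, Nr1d1 of 1.74 (percentile 99.5), Cry1 of 1.26 (percentile 98.7) and Per3 of 0.91 (percentile 97.2). Nr1d2 followed with 0.78 (percentile 96), Per2 with 0.55 (percentile 90.4), Tef with 0.52 (percentile 89.2) and Clock with 0.49 (percentile 87.4). Per1 had 0.32 (percentile 66.7) and Cry2 0.18 (percentile 24.6). So 9 of 10 members varied more between animals of a group than the median gene, 6 of 10 were in the top 10% of genes, and Cry2 was the exception. HTG 1 held the lowest value of the 6 libraries for 6 members (Per3, Cry2, Nr1d1, Nr1d2, Dbp and Tef), and HTG 2 held the highest for 5 of these, all but Cry2. HFD 2 was highest for 3 members, Clock, Per1 and Cry2. The correlation of log2 values across genes, which are not independent replicates, was 0.951 to 0.958 within HFD, 0.948 to 0.959 within HTG and 0.917 to 0.959 between the groups. It mostly follows differences in level between genes, so it cannot be set beside the spread of single members.

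To see whether single libraries stood at different points of the cycle, each gene was centred on its mean log2(FPKM + 0.1) over the 6 libraries, and the mean over 10 genes switched on through E-boxes or rising with them (Per1, Per2, Per3, Nr1d1, Nr1d2, Dbp, Tef, Hlf, Ciart and Bhlhe41) was set against the mean over 5 genes of the opposite arm (Arntl, Clock, Npas2, Nfil3 and Cry1). The E-box arm minus the opposite arm was 0.87, −0.74 and −0.47 in HFD 1, 2 and 3 and −2.09, 1.84 and 0.59 in HTG 1, 2 and 3. HTG 1 and HTG 2 were thus the extremes, on opposite sides, and HFD libraries lay between them. The group means nearly coincided beside their spread, at −0.12 ± 0.86 in HFD and 0.12 ± 2.01 in HTG (SD, n = 3 each). In HTG 1, 1 of 10 E-box genes and 5 of 5 opposite genes were above their own means. In HTG 2, 9 of 10 E-box genes and 0 of 5 opposite genes were. HFD 1 had 8 of 10 and 0 of 5, HTG 3 had 6 of 10 and 0 of 5, HFD 2 had 4 of 10 and 4 of 5, and HFD 3 had 4 of 10 and 4 of 5. These counts use no tolerance, and some values lay almost at the mean of their gene. They were Per3 in HFD 1 (0.0006), Per2 in HTG 1 (−0.0002) and Npas2 in HFD 3 (0.0011). Outside HTG 1 the side on which Npas2 fell carries little, as it was near its floor there. The arms therefore lay on opposite sides of their means in single libraries of the same group. Bhlhe40 and Cry2 also respond to E-boxes but were not in that arm, and Bhlhe40 was highest in HFD 3, against it. With both added, an alternative chosen after seeing the data, the difference was 0.81, −0.73 and −0.34 in HFD against −2.0, 1.73 and 0.53 in HTG.

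Ratios of genes from opposite arms also spread the libraries widely. The log2 ratio of Nr1d1 to Arntl was 6.45, 3.01 and 2.59 in HFD against 0.62, 7.86 and 6.30 in HTG, on the FPKM + 0.1 scale. The log2 ratio of Dbp to Npas2 was 8.65, 6.35 and 6.08 in HFD against 2.99, 9.48 and 8.03 in HTG, where Npas2 was near its floor in every library but HTG 1 and the ratio mostly follows Dbp. The log2 ratio of Per2 to Cry1 was 2.08, 0.016 and 1.55 in HFD against 0.45, 3.43 and 3.39 in HTG. HTG 2 had the highest value of all 3 ratios and HTG 1 the lowest of the first 2, while HFD 2 had the lowest of Per2 to Cry1. Single E-box genes departed from the mean of their arm, among them Per1, Per2, Hlf and Ciart. Per1 was highest in HFD 2 and lowest in HTG 3, and Hlf was above its mean in HTG 1 and below it in HTG 2 and HTG 3. Per2 was below its mean in HFD 1 and above it in HFD 3, against the arm, and Ciart was below its mean in HTG 3. The single libraries thus differed in the balance of the arms. Phase, amplitude and hour of sampling cannot be told apart from 1 sample per animal, and the hour was not given in the sources used here.

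**Figure D2:**
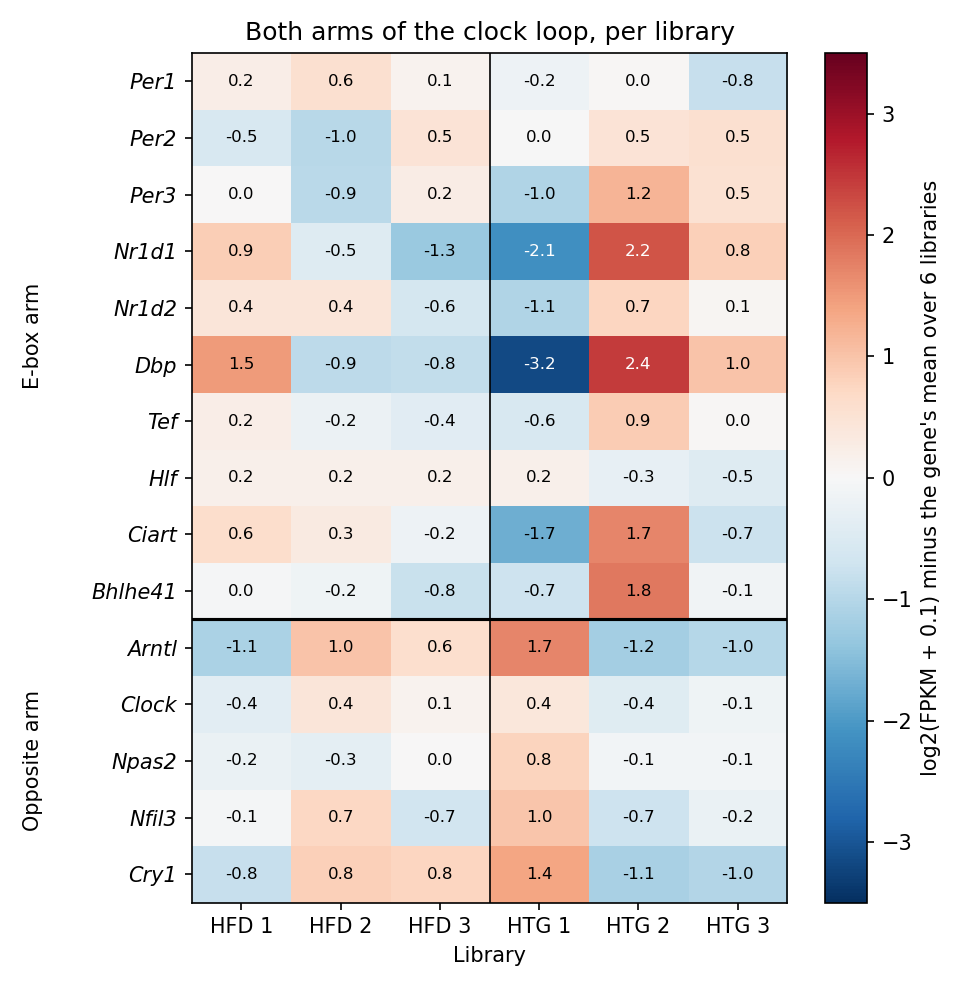
Each cell is log2(FPKM + 0.1) of a gene in a library minus the mean of that gene over the 6 libraries, red above and blue below it, with E-box arm genes above the horizontal line and opposite arm genes below it, and HFD left and HTG right of the vertical line. HTG 1 is low in Dbp and Nr1d1 and high in Arntl and Cry1, HTG 2 is the reverse, and the differences between arm means run from −2.09 in HTG 1 to 1.84 in HTG 2.

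Most of the other loop genes were also spread widely within groups, and 0 of 8 had an unadjusted p under 0.05 in edgeR, beside 24.7% of all genes. Without HTG 1, 3 of 8 had one (Arntl, Hlf and Bhlhe41, beside 25.7% of all genes in that fit). Ciart was the 1 that did without HTG 2 (beside 16.2%). Rora, which encodes an activator that competes with REV-ERB at the same element, was at 1.85, 58.3 and 36.5 CPM in HFD against 31.9, 26.3 and 36.8 CPM in HTG. HFD 1 was 31.5-fold below HFD 2 while the HTG libraries were within 1.4-fold, and the log2 fold change of Rora was −0.026 with HFD 1 and −0.59 without it. No other library showed this low value of Rora. Nfil3, a repressor at D-boxes that opposes DBP, was at 21.8, 42.3 and 14.3 CPM in HFD against 48.8, 13.7 and 22.3 CPM in HTG, highest in HTG 1, where Dbp was lowest, and lowest in HTG 2, where Dbp was highest, with a log2 fold change of 0.11. Hlf, the remaining PAR-bZIP gene, was at 42.4, 46.5 and 42.6 CPM in HFD against 45.5, 30.2 and 30.8 CPM in HTG. It varied little, 1.1-fold within HFD, unlike Dbp, and its log2 fold change was −0.30, or −0.57 without HTG 1 (unadjusted p = 0.011).

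Bhlhe40 and Bhlhe41 encode the DEC repressors, and Ciart encodes a repressor of the BMAL1 pair. Bhlhe40, the most abundant of the 8 by FPKM, was at 83.4, 67.8 and 147 CPM in HFD against 55, 132 and 71.7 CPM in HTG, high in HFD 3 and HTG 2, with a log2 fold change of −0.20. Bhlhe41 was at 2.19, 2.19 and 1.04 CPM in HFD against 1.19, 9.65 and 2.35 CPM in HTG and Ciart at 19.3, 17.5 and 11.1 CPM in HFD against 3.95, 41.3 and 8.56 CPM in HTG. Both were highest in HTG 2, 8.08-fold and 10.4-fold above HTG 1, with log2 fold changes of 1.29 and 0.17 that became −0.035 and −1.36 without HTG 2. Each has an antisense partner that was also highest there. Gm43909 in Bhlhe41 had 7, 6 and 8 counts in HFD against 24, 138 and 4 in HTG, and C920021L13Rik over Ciart had 43, 92 and 94 in HFD against 177, 303 and 66 in HTG. Adjusted p-values of the 8 loop genes ran from 0.305 to 0.989 (edgeR quasi-likelihood, Benjamini-Hochberg), and 3 had lower and 5 higher fitted values in HTG, with a median log2 fold change of 0.12 beside 0.17 for the members and 0.025 for all genes tested.

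Outside the core loop most pathway genes had lower fitted values in HTG, namely 8 of 12 modifiers, 7 of 8 PAR-bZIP targets and 5 of 5 other outputs, beside 48.4% of all genes, though none passed the adjusted test in edgeR. Most lists from outside the pathway leaned the same way. All these lists were chosen with earlier results of these data known, so their counts are a description only. Fitted values were lower in 6 of 7 hepatocyte markers, 5 of 6 Kupffer cell markers and 6 of 8 fasting and feeding genes. They were also lower in 6 of 8 temperature-sensitive, 6 of 8 glucocorticoid-responsive, 4 of 6 stellate, 3 of 5 biliary and 3 of 5 red cell genes. Only the endothelial and leukocyte lists leaned higher, with lower values in 1 of 5 sinusoidal endothelial and 0 of 5 leukocyte genes. Of 33 other clock pathway genes, the loop genes included, 0 had an adjusted p under 0.05 by edgeR, 9 did by DESeq2 (beside 13% of all genes) and 4 by limma on log2(FPKM + 0.1) (Cyp2a5, Wee1, Fbxw11 and Nono, beside 8.03%), and edgeR gave 3 without HTG 1 (Cyp2a5, Wee1 and Fbxw11, beside 3.38%). The limma fit left out genes with a mean FPKM under 1 (Arntl, Npas2, Bhlhe41, Btrc and Cyp2b10), so it tested fewer than 33. At an unadjusted p under 0.05, 12 were lower in HTG and 1 was higher, beside 12.4% lower and 12.3% higher of all genes. The HFD and HTG libraries did not overlap for 13 lower genes and 1 higher (Sirt1), beside 15.5% lower and 16.5% higher of all genes, and the median log2 fold change was −0.27. Of 12 clock protein modifiers and cofactors (kinases, ubiquitin ligases and corepressors, with Nono the most abundant by FPKM), 4 were lower (Csnk1d, Csnk1a1, Fbxw11 and Nono) and 1 higher (Sirt1) at an unadjusted p under 0.05. Apart from Nono these genes were named after their values were seen. Fbxw11, a ubiquitin ligase subunit that marks PER proteins for breakdown, was at 18.8, 29.2 and 26.5 CPM in HFD against 16, 11.1 and 12.1 CPM in HTG, with a log2 fold change of −0.92 (edgeR quasi-likelihood, Benjamini-Hochberg adjusted p = 0.0656). Sirt1, a deacetylase that acts on the clock proteins, was at 14.3, 13.3 and 9.7 CPM in HFD against 15.7, 17.4 and 17.9 CPM in HTG, with a log2 fold change of 0.45 (unadjusted p = 0.0451). Every HTG library was above every HFD library in Sirt1. Nono, an RNA-binding partner of the PER proteins, was at 81.4, 84.1 and 90.4 CPM in HFD against 59.5, 48.9 and 57.6 CPM in HTG, lower in every HTG library, with a log2 fold change of −0.62 (edgeR quasi-likelihood, Benjamini-Hochberg adjusted p = 0.0752).

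Of 8 liver targets of the PAR-bZIP factors, genes of drug, heme and bile acid metabolism, 3 passed the volcano thresholds, all lower in HTG, beside 3.88% of all genes in that direction. Cyp2a5, the most abundant of the 8 by FPKM, was at 3769, 4437 and 1370.5 CPM in HFD against 710, 529 and 286 CPM in HTG, a log2 fold change of −2.65 ± 0.50 (SE; edgeR quasi-likelihood, Benjamini-Hochberg adjusted p = 0.058). All 3 HTG libraries lay below all 3 HFD libraries, while Dbp in HTG 2 was above every HFD library. Agreement with Dbp across libraries was not tested. Cyp2a4 is a near-identical copy of Cyp2a5, so the split of reads between the pair is uncertain, and it was at 161, 545 and 377 CPM in HFD against 231, 464 and 233 CPM in HTG with overlapping groups. Alas1, the first enzyme of heme synthesis, was at 655, 1607 and 714 CPM in HFD against 380.1, 423 and 347 CPM in HTG, a log2 fold change of −1.37 ± 0.36 (SE; edgeR quasi-likelihood, Benjamini-Hochberg adjusted p = 0.0747). Por, the electron donor of the cytochromes P450, was at 709, 1205 and 585 CPM in HFD against 516, 326 and 258 CPM in HTG, a log2 fold change of −1.18 ± 0.36 (SE; edgeR quasi-likelihood, Benjamini-Hochberg adjusted p = 0.0977). In both, HFD 2 was the high library and every HTG library was below every HFD library. Without HFD 2 the log2 fold change of Alas1 was −0.84 and that of Por −0.82, so that neither passed the volcano thresholds and the count over the 33 genes was 2 in place of 4 (Cyp2a5 and Wee1, beside 8.09% of all genes in that fit), while it was 9 without HTG 1 (beside 12.1%). Without HTG 3 the log2 fold change of Por was −0.97.

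Among 5 other clock-driven liver outputs, 4 were lower in HTG at an unadjusted p under 0.05 (Noct, Usp2, Wee1 and Nampt, of which Noct and Usp2 were named after their values were seen), beside 12.4% of all genes, and 1 passed the volcano thresholds in that direction, beside 3.88%. That gene was Wee1, a cell cycle kinase gene with E-boxes in its control region, at 11.9, 13.3 and 15.4 CPM in HFD against 4.3, 6.18 and 3.65 CPM in HTG, with no overlap. Its log2 fold change was −1.52 ± 0.25 (SE; edgeR quasi-likelihood, Benjamini-Hochberg adjusted p = 0.0538). Wee1 and Cyp2a5 each had an adjusted p under 0.05 in 7 of 16 alternatives (DESeq2, edgeR unfiltered, edgeR on genes with 10 or more counts throughout, limma on FPKM with either pseudocount and a mean of at least 1, counts divided by 4, and without HTG 1). Over all 16, that p ran from 1.17e-05 to 0.188 for Wee1 and from 2.78e-07 to 0.192 for Cyp2a5. Nampt, which makes NAD and was the most abundant of the 5 by FPKM, was at 67.4, 106 and 76.1 CPM in HFD against 64.6, 46.3 and 46.5 CPM in HTG and had a log2 fold change of −0.66 (edgeR quasi-likelihood, Benjamini-Hochberg adjusted p = 0.129). For the same 4 every HTG library lay below every HFD library, as it did for 15.5% of all genes.

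Promoter sequences were searched because the members that varied most belong to an E-box circuit. They are RefSeq sequences of the rat genome GRCr8, from 250 bases before to 50 after the start of a gene, while the table's rows are mouse genes, and 9 of the 10 members had an entry, Cry1 being the other. The motifs searched, on both strands, were the E-box CACGTG, the D-box TTANGTAA and the ROR and REV-ERB response element, an A/T-rich stretch before GGTCA. They occur in 6.42%, 2.24% and 0.852% of 33469 promoters of this length. These shares are per promoter, while the members are counted per gene, over 11 promoters. An E-box was found for 2 of 9 members, Nr1d1 (in 1 of its 2 promoters) and Tef, and a D-box for 1, Per2. Clock, Per1, Per2, Per3, Cry2, Nr1d2 and Dbp had no E-box in these windows. Among the 7 loop genes with an entry, 3 had an E-box (Bhlhe40, Bhlhe41 and Ciart, the last with 3 copies) and 1, Bmal1, had the ROR and REV-ERB element. Below are the stretches that hold the motif, in capitals, for the members with one and for Ciart and Bmal1, whose transcripts lay at opposite ends of the libraries, at chr10:84229615-84229670 (minus strand), chr7:115206604-115206659 (plus strand), chr9:99497153-99497210 (minus strand), chr2:186112247-186112364 (minus strand) and chr1:176766284-176766327 (plus strand). A match is a description of letters, and binding was not measured.
Nr1d1: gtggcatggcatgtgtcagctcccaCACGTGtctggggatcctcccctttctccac
Tef: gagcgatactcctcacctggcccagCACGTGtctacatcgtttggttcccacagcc
Per2: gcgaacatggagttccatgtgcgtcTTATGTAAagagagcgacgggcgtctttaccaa
Ciart: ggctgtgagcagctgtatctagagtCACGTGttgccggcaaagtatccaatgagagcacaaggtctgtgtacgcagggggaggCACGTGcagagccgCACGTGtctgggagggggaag
Bmal1: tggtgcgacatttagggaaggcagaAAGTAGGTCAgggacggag

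Other features of the libraries varied beside the members, and their part in the clock values was not tested. Counts on the mitochondrial chromosome were 6.45%, 4.97% and 5.24% of the total in HFD against 9.31%, 15.2% and 13.2% in HTG, with HTG 2 highest. Of 8 fasting and feeding genes, 2 passed the volcano thresholds, both lower in HTG, beside 3.88% of all genes in that direction, namely G6pc at 70.8, 354 and 234 CPM in HFD against 119, 18.9 and 45.9 CPM in HTG and Pdk4 at 2.63, 25.7 and 6.15 CPM in HFD against 3.2, 0.481 and 1.99 CPM in HTG. Both were lowest in HTG 2 and highest in HFD 2. Without HFD 2 their unadjusted p was 0.115 for G6pc and 0.127 for Pdk4. The call of G6pc was also lost without HFD 3, HTG 2 or HTG 3. A block for the replicate number ended it too (unadjusted p = 0.0816). Pdk4 lost its call without HTG 2 and with that block. Srebf1, a lipid synthesis regulator induced by feeding and named after its values were seen, was highest in HTG 2, at 155, 87.3 and 393 CPM in HFD against 244, 597 and 261 CPM in HTG. The summed level of the 8 was 3890.1, 4826 and 2419 CPM in HFD against 2649.8, 2163 and 2877 CPM in HTG, with Pck1 the most abundant by FPKM. Of 8 glucocorticoid-responsive genes 1 passed, Tat, at 1485, 2051 and 1918 CPM in HFD against 807, 372 and 1011 CPM in HTG. The sum of the 8 was 2418, 3491 and 2514 CPM in HFD against 2908, 698 and 3898 CPM in HTG, with HTG 2 the lowest. Mt2 was the most abundant by mean FPKM, narrowly over Mt1. In CPM Tat was the highest in every HFD library and HTG 2, and Mt1 in HTG 1 and HTG 3. The sum mostly follows Tat, Mt1 and Mt2. Klf9 and Sgk1 were not lowest in HTG 2, while the others were. Of 8 temperature-sensitive genes 1 passed, Hspa1b, a near-identical copy of Hspa1a, at 10.4, 21.2 and 9.16 CPM in HFD against 10.9, 4.28 and 5.1 CPM in HTG, and their sum was 1584, 2081 and 1748 CPM in HFD against 1576, 1123 and 1544 CPM in HTG, with Hspa8 the most abundant by FPKM, so that the sum mostly follows it, and HTG 2 again the lowest. Hspa1b lay close to the thresholds. Its call was lost in 7 of 16 alternatives. These were without HFD 2 (unadjusted p = 0.219), HTG 2 or HTG 3, with the block, with upper-quartile scaling, with counts divided by 4 and in limma on log2(FPKM + 1). Cirbp, a cold-induced RNA-binding protein gene named after its values were seen, went the other way, at 21.1, 23.8 and 19.1 CPM in HFD against 25.2, 45.4 and 31 CPM in HTG, highest in HTG 2, with a log2 fold change of 0.67 (unadjusted p = 0.0193) and no overlap. HTG 2, the library with the most Dbp, was thus also lowest in these 3 sums, and HTG 1, with the least Dbp, lay within the range of the other libraries in each.

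Markers of liver cell types were read in the same way, since in bulk tissue fewer cells of a type and less RNA per cell cannot be told apart. Of 7 hepatocyte markers tested, 3 passed the volcano thresholds, all lower in HTG, beside 3.88% of all genes in that direction (Apob −1.05, Cps1 −1.62 and Ass1 −1.14 in log2 fold change), and the list, led by Alb, summed to 76569.7, 86619 and 95859.5 CPM in HFD against 68147, 67603 and 68629 CPM in HTG. The sum mostly follows Alb. Apob fell short of the thresholds without HFD 2, HTG 2 or HTG 3, and Ass1 without HFD 3. Of 6 Kupffer cell markers 1 passed, Adgre1 (−1.53), and the sum was 1100.2, 595 and 1045 CPM in HFD against 803, 711 and 446 CPM in HTG, led by Cd5l. None of 5 sinusoidal endothelial, 6 stellate, 5 biliary, 5 tested leukocyte and 5 red cell genes passed these thresholds, and Ms4a1, a B cell gene at 0 in HFD 3, was too low to test. At an unadjusted p under 0.05 in edgeR there were 0 sinusoidal endothelial, 2 stellate (Reln lower and Des higher), 2 biliary (Epcam lower and Sox9 higher), 0 leukocyte and 1 red cell gene (Alas2 lower), named after their values were seen, beside 24.7% of all genes. The endothelial list summed to 125, 53 and 91.2 CPM in HFD against 139, 137 and 92.3 CPM in HTG. Clec4g led that list by mean FPKM, while Stab2 was the highest in CPM in every library. The stellate list, led by Dcn, summed to 181, 133 and 170.5 CPM in HFD against 157, 119 and 104 CPM in HTG. The biliary list, led by Spp1, summed to 85.3, 98.5 and 106 CPM in HFD against 70.5, 59.5 and 131 CPM in HTG. The leukocyte list summed to 35.1, 34.2 and 31.3 CPM in HFD against 28.4, 40.1 and 43.3 CPM in HTG. S100a8 led it by mean FPKM, while Ptprc was the highest in CPM in every library. The red cell list summed to 257, 234 and 422 CPM in HFD against 279, 484 and 258 CPM in HTG. Hbb-bs led it by mean FPKM, narrowly over Hba-a1, and in CPM Hbb-bs was the highest in every HFD library and Hba-a1 in every HTG library. The part of these cell types in the clock values was not tested.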

How the data were processed

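The authors deposited, for each gene and library, an estimated count, as a whole number with no scaling to library size, beside FPKM, which they scaled by transcript length and library size. The submitters' processing notes name HISAT2, StringTie, SAMtools and the rat build mRatBN7.2, without versions, whereas the rows are mouse genes. Libraries were made from poly(A) RNA and sequenced as read pairs of 150 bases, and whether counting used the strand was not given in the sources used here.

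All 6 libraries were compared as 3 HTG against 3 HFD by title. The main test was edgeR 4.0.16 in R 4.3.3 (filterByExpr, TMM, glmQLFit and glmQLFTest, group as the only term), with Benjamini-Hochberg adjustment over 18455 genes and a call at an adjusted p under 0.05. The SE is the log2 fold change divided by the square root of F. The smallest p that an exact permutation test of 3 against 3 allows is 0.1, so none was run. DESeq2 1.42.0, limma 3.58.1 on log2(FPKM + 0.1) and log2(FPKM + 1) with or without a mean FPKM of at least 1, no low-count filter, a minimum of 10 counts per library, 2 other scalings, counts divided by 4, the replicate number as a block, and each library left out were the alternatives. The scripts were tested on simulated data.

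The members and the other gene lists were chosen with earlier results of these data known, and no test was run over a list. A loop gene and a modifier gene are left out of the lists, counts and arm values, for a reason that does not rest on their values. Named genes are all members and loop genes, and in the other lists those past the call or else the volcano thresholds, and the most abundant by FPKM, with others named after their values were seen, and Cyp2a4 as the near copy of Cyp2a5. Of the hepatocyte list, Tf was not among the gene names. Clock, Arntl and the rest were matched by symbol, with Bmal1 read as Arntl and G6pc1 as G6pc.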

Additional observations from a re-analysis of the deposited data

How the results depend on the processing

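In none of the settings tried did any of the 10 members have an adjusted p under 0.05. The number with an unadjusted p under 0.05 was 1 in the main test, 2 with the replicate block and 0 to 4 when single libraries were left out, and the number past the volcano thresholds was 0 in the main test and 0 to 3 when single libraries were left out. In all genes, 2 had an adjusted p under 0.05 in the main test, 2401 in DESeq2, 162 with no filter, 684 with at least 10 counts in every library, 878 in limma on log2(FPKM + 0.1), 884 on log2(FPKM + 1), 0 on log2(FPKM + 0.1) with no filter, 822 with counts divided by 4, 0 with the replicate block and 0 to 653 without single libraries. Past the volcano thresholds were 1633 genes in the main test, and 878 and 481 in limma on log2(FPKM + 0.1) and log2(FPKM + 1). Of the 33 other pathway genes, 0 had an adjusted p under 0.05 in the main test, with the replicate block and in limma on log2(FPKM + 0.1) with no filter, 9 in DESeq2, 2 with no filter, 2 with at least 10 counts in every library, 4 in filtered limma with either pseudocount, 2 with counts divided by 4 and 0 to 3 without single libraries. Past the volcano thresholds were 4 of them in the main test and 2 to 9 without single libraries. The number of genes tested differs between these settings, and the cause of the differences was not tested.

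Of 30 genes followed through the settings that tested them (members, loop genes and genes of the lists past the volcano thresholds, with Arntl, Npas2 and Bhlhe41 filtered out in some), 11 had a fold change of the other sign in at least 1 setting. When libraries were left out in turn, the log2 fold change ran from −0.39 to 0.20 for Clock, −1.58 to 0.24 for Cry1, −0.44 to 0.26 for Nr1d2, −0.14 to 2.19 for Dbp and −0.015 to 0.61 for Tef. Among the loop genes it ran from −2.07 to 0.73 for Arntl, −0.59 to 0.72 for Rora, −0.58 to 0.64 for Nfil3, −0.65 to 0.19 for Bhlhe40, −0.035 to 1.70 for Bhlhe41 and −1.36 to 0.61 for Ciart. With upper-quartile scaling Nr1d2 was at 0.00090 and Rora at 0.031. With the replicate block Arntl was at −0.94, Rora at 0.72 and Ciart at −0.45. In limma, Rora was at 0.73 and Ciart at −0.50 on log2(FPKM + 0.1), with or without the filter, at 0.22 and −0.35 on log2(FPKM + 1), and Arntl at −0.31 without the filter. The cause of these reversals was not tested.

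The replicate numbers name animals and do not pair them. Libraries with the same number had correlations of their deviations of −0.078, −0.073 and 0.10, and not every library correlated best with its own number. The block moved the count of calls in all genes from 2 to 0. Depth limits Npas2, which is near 12 counts in most libraries. With 3 animals a group, these data cannot show whether HTG shifts members spread as widely as Dbp, Nr1d1 or Cry1. Cry2 and Per1 were far more even. For any member a p that misses the threshold does not show that the groups were equal. The phase profile kept its sign in every library with log2 CPM in place of FPKM, with any 1 gene left out, and with Bhlhe40 and Cry2 added. Leaving out 1 gene changes the mean of an arm little. The other alternatives, libraries left out among them, were not run on the profile.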

Other observations

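Genes with a pattern over the 6 libraries like that of Dbp or of Per2 were looked for among 9412 tested protein-coding genes outside the lists, with a mean of at least 5 CPM, by the root mean square difference between centred log2 CPM profiles. This measure is not scaled for the range of a gene, so the wide range of Dbp makes its differences larger. The differences for Dbp and for Per2 are therefore not compared. The nearest to Dbp were Fos, an immediate early gene, at a difference of 1.22, Lats1 at 1.23 and Zbtb38 at 1.23. Fos was at 11, 7.78 and 7.63 CPM in HFD against 4.26, 23.1 and 8.94 CPM in HTG, lowest in HTG 1 and highest in HTG 2 as Dbp was, but over a far smaller range. Lats1, a kinase gene of the Hippo pathway, was at 22.8, 26.4 and 24.0 CPM in HFD against 2.89, 25.1 and 26.9 CPM in HTG, so that only HTG 1 stood apart. Zbtb38 likewise was at 0.899 CPM in HTG 1 and between 8.32 and 11.4 CPM in the other 5 libraries.

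The nearest to Per2 were Slc25a45 at a difference of 0.13, Klhl26 at 0.17 and Primpol at 0.18. Slc25a45, a mitochondrial carrier gene, was at 20.3, 14.5 and 33.3 CPM in HFD against 31.0, 40.5 and 43.2 CPM in HTG, with HFD 2 lowest and HTG 3 highest, as for Per2. Klhl26 was at 4.07, 3.06 and 8.56 CPM in HFD against 5.15, 9.59 and 8.67 CPM in HTG. Primpol, a DNA primase and polymerase gene, was at 5.21, 3.04 and 8.45 CPM in HFD against 5.97, 9.54 and 11.2 CPM in HTG. In all 3, HFD 3 was the highest HFD library and HFD 2 the lowest, as in Per2.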
